A study of Mus musculus with 4 samples.

Results

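The mouse Oas cluster on chromosome 5 holds the genes of the 2′-5′-oligoadenylate synthetase family: Oas1a to Oas1h, Oas2 and Oas3. These 10 genes were taken by symbol from the 28250 genes with a deposited value, and all 10 were listed. The cluster was picked because Oas1e was among the genes with the largest rise after MS-275, so the changes of its members, and the calls and intervals printed beside them, are given below as a description and support nothing further. RNA-seq had been done on TBV2, a feeder-dependent mouse embryonic stem cell (ESC) line of 129/SvP origin grown with LIF, after 24 h with solvent (replicates 1 and 2) or after 24 h with 5 µM MS-275 (replicates 1 and 2). MS-275, also called entinostat, inhibits class I histone deacetylases. TBV2 is a single line. No source used here says that the libraries of a condition came from separate cultures, so the spread between them may be technical, and which vehicle the solvent cells received was not resolved.

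OAS enzymes are sensors of double-stranded RNA. On binding it they join ATP into 2′-5′-linked oligoadenylates, which act as a second messenger of the antiviral response. Their genes are classic targets of interferon, which acts through a DNA element called the interferon-stimulated response element (ISRE). Mice carry many Oas1 copies: Oas1a and Oas1g are known as active synthetases, Oas1b is known for resistance to flaviviruses and is truncated in most laboratory strains, and Oas1d is known from oocytes. Oas2 and Oas3 code for larger proteins built from repeated OAS units. ESCs are known for a weak interferon response.

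On the mm9 genome the 10 genes lie side by side, in the order Oas2, Oas3, Oas1e, Oas1c, Oas1b, Oas1f, Oas1h, Oas1g, Oas1a and Oas1d, from chr5:121180342 (the end of Oas2) to chr5:121371661 (the end of Oas1d). Oas1e (Entrez 231699) lies on the minus strand at chr5:121236321-121245539 with 6 exons and 1715 exon bases. It is 8650 bases from Oas3 and 4562 bases from Oas1c. Oas1c and Oas1b are head to head, with 120 bases between their annotated starts. The coding sequences of the Oas1 genes were 73.2% (Oas1a and Oas1e) to 95.1% (Oas1a and Oas1g) identical, and the copy nearest to Oas1e was Oas1d at 90.8%. The coding sequence of Oas1b was 756 bases long against 1071 to 1116 bases in the other 7 Oas1 genes.

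The sequences just upstream of the starts are shown because they differ among the members in whether they hold an ISRE. The motif searched was GAAA, any 2 bases and GAAA again, on both strands, from 250 bases before to 50 bases after each annotated start. It was present for 6 of the 10 genes, namely Oas1a, Oas1b, Oas1c, Oas1g, Oas2 and Oas3, and for 3.78% of the promoters of 22380 protein-coding genes. In the 4 Oas1 genes it was found as 2 overlapping matches. It was absent from these windows of Oas1e, Oas1d, Oas1f and Oas1h. The window of Oas1d lies at an annotated first exon of 20 bases, which held 0 alignments in all 4 libraries. The annotated first exons of Oas3 and Oas1h also held 0 alignments in all 4 libraries. That of Oas1f held 1, in MS-275 replicate 2. Which starts are in use was not tested. All sequences here are those of the mm9 reference, and the genome of TBV2 was not examined. The 40 bases of Oas1a that end with its ISRE matches are given first, with the 16 bases of the overlapping matches, or the bases at that place, in capitals. The best ungapped match to them in the other Oas1 flanks follows.
Oas1a, chr5:121357539-121357578, minus strand: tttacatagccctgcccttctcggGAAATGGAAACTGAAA
Oas1b and Oas1c (shared), chr5:121262598-121262637, plus strand: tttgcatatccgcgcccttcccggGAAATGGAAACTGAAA
Oas1h, chr5:121311359-121311398, plus strand: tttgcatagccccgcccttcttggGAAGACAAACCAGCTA
Oas1e, chr5:121245572-121245611, minus strand: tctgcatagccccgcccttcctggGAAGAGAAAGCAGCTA

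Oas1g (chr5:121337625-121337664, minus strand) had the same 40 bases as Oas1a. Of the 40 bases, 35 were identical to Oas1a in the Oas1b and Oas1c stretch, 29 in Oas1h and 28 in Oas1e. Within the 16 capitals 16, 8 and 9 were identical, so the lower case part of Oas1e and Oas1h was more like Oas1a than the capitals were. The best matches of Oas1f (21 of 40) and Oas1d (20 of 40) were weaker. The 250 bases upstream of Oas1e, with no ISRE, and the 120 bases between the annotated starts of Oas1c and Oas1b, with the ISRE matches in capitals, read as follows.
Oas1e, chr5:121245540-121245789, minus strand: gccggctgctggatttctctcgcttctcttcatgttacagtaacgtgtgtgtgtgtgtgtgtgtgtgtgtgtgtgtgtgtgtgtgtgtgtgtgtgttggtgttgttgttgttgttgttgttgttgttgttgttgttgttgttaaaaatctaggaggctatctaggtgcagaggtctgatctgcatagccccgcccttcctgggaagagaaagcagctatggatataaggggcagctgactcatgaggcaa
Oas1c to Oas1b, chr5:121262524-121262643, plus strand: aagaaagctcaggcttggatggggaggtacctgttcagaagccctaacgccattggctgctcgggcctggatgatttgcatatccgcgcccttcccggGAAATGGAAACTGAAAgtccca

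The GAS motif TTCNNNGAA was found in the window of Oas1a alone among the 10 genes (7.94% of all promoters), and TATAAA in none of them (13.4% of all promoters), both searched on both strands. Only the exact string TATAAA was searched, so near matches such as the tataag in the Oas1e flank above were not counted. The windows held between 2 (Oas1f and Oas1h) and 11 (Oas1b) CpG dinucleotides, with 5 in Oas1e, against a median of 11 over all promoters. These matches describe letters in a window, and no binding was measured.

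The deposited value of a gene is a normalized signal made by the authors with Genomatix, by a formula not given in the sources used here. Log2 fold changes are MS-275 minus solvent on the log2(value + 0.005) scale, which understates the change of low genes. Oas1e had a value of 0 and 0.001 with solvent (replicates 1 and 2) and of 0.104 and 0.178 with MS-275. The gene was therefore at or near 0 in both solvent libraries and high in both MS-275 libraries, with means of 0.0005 ± 0.000707 and 0.141 ± 0.0523 (SD, n = 2 each). On the log2 scale it was higher by 4.69 (SE 0.634), by 4.45 in the replicate 1 pair and by 4.93 in the replicate 2 pair, and it ranked 4 of 20336 genes from the highest. In the order of all 28250 genes it moved from the percentiles 0 and 35.6 to 71.9 and 83.4. As the libraries are bulk RNA, more cells with Oas1e RNA and more of it per cell cannot be told apart.

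Oas1c had values of 0.0233 and 0.0166 with solvent and of 0.0708 and 0.0525 with MS-275, a log2 fold change of 1.42 that was nearly the same in the replicate 1 pair (1.42) and the replicate 2 pair (1.41). Oas1b, whose annotated start is 120 bases away on the other strand, had 0.00785 and 0.00538 with solvent and 0.0221 and 0.0176 with MS-275, a log2 fold change of 1.10. Both genes of this head-to-head pair were thus higher in each MS-275 library than in either solvent library. Oas1d, the copy nearest to Oas1e in sequence, had 0.0147 and 0.00909 with solvent and 0.0411 and 0.0308 with MS-275, with a log2 fold change of 1.28. Oas1f had 0 and 0.00252 with solvent and 0.0049 and 0.00739 with MS-275, with a log2 fold change of 0.85. Its groups did not overlap, but all 4 values were low.

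The other 5 genes overlapped between the groups. Oas1a, an active synthetase, had 0.0398 and 0.0258 with solvent and 0.0443 and 0.0235 with MS-275, with a log2 fold change of 0.01. Oas1g, its near copy, had 0.0332 and 0.0188 with solvent and 0.0238 and 0.0208 with MS-275, with a log2 fold change of -0.15. The MS-275 values of Oas1g lay between its solvent values, and those of Oas1a lay just above and just below them. Oas2 had 0.0271 and 0.0171 with solvent and 0.0332 and 0.0141 with MS-275 (log2 fold change 0.02). Oas3 had 0.0341 and 0.0195 with solvent and 0.0517 and 0.0167 with MS-275 (log2 fold change 0.18). In Oas2 and Oas3 the replicate 1 library was the higher of the 2 in either condition, as in all other members but Oas1e and Oas1f. The MS-275 values of Oas2 and Oas3 lay on both sides of the solvent values. Oas1h stayed under 0.005 in all 4 libraries (log2 fold change 0.16).

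**Figure D1:**
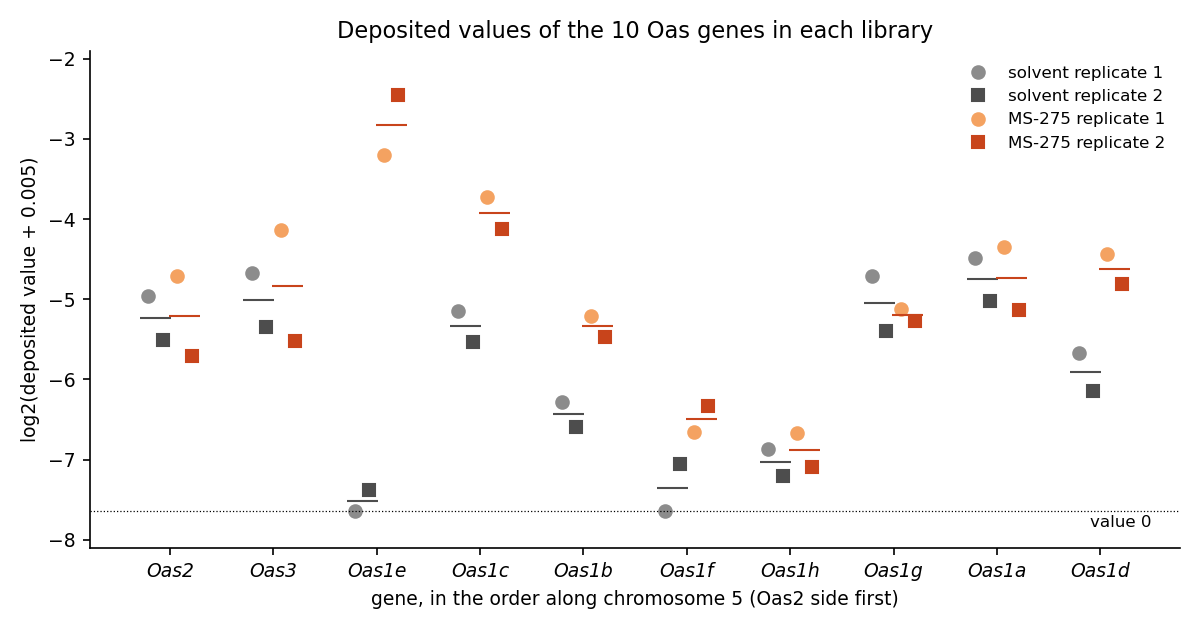
Deposited values of the 10 Oas genes, as log2(value + 0.005), in the order of the genes on the chromosome. Circles are replicate 1 and squares replicate 2, grey for solvent and orange to red for MS-275, short lines are the means of 2 libraries, and the dotted line marks a value of 0. Oas1e goes from the dotted line to the top of the plot, and Oas1c, Oas1b, Oas1f and Oas1d are higher in both MS-275 libraries than in both solvent libraries.

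Thus 5 of the 10 genes (Oas1e, Oas1c, Oas1b, Oas1f and Oas1d) were higher in both MS-275 libraries than in both solvent libraries, against 32.3% of all 20336 genes tested, and 0 were lower (12% of all genes). With values under 0.001 set to 0.001, the same 5 were higher by 2-fold or more in each of the replicate pairs (11.5% of all 28250 genes) and 0 were lower by as much (2.04%). With values under 0.01 set to 0.01 they were 3, Oas1e, Oas1c and Oas1d (4.47% of all genes), and 0 were lower (1.28%).

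Limma with the replicate number as a block and Benjamini-Hochberg adjustment called the same 5 genes higher (21% of all genes) and 0 lower (6.46%). Without the block it called 0 of the 10, against 0.00492% of all genes higher (1 gene) and 0% lower, while at an unadjusted p under 0.05 there were 2974 higher and 564 lower genes. Over all genes the block gave 4277 higher and 1314 lower, and the split was 2936 and 2961 after quantile normalization and 3379 and 2864 after median-ratio scaling. With quantile normalization and the block, 2 Oas genes were called higher, Oas1e and Oas1c (14.4% of all genes), and with median-ratio scaling and the block all 5 (16.6%). Limma-voom on distinct alignment positions, in which 8 Oas genes had enough positions, called 3 higher without the block, Oas1e, Oas1c and Oas1d (14.8% of all genes), and with the block Oas1b too (28.8%). Oas1e and Oas1f, at 0 in a solvent library, entered the fit through their MS-275 values. Since the members were chosen on this contrast, nothing is read from these counts. The median log2 fold change of the 10 genes was 0.52 and that of all genes tested was 0.20. Of the 5 genes that were higher, Oas1b and Oas1c share an ISRE between them and Oas1e, Oas1d and Oas1f have none in the window, whereas of the other 5 only Oas1h lacks it. The windows lie at annotated starts, and the annotated first exons of Oas1d, Oas3 and Oas1h held no alignments. A relation between the motif and the changes was not tested.

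The sum of the 10 values was 0.184 and 0.118 with solvent and 0.401 and 0.364 with MS-275. With solvent Oas1a held the largest share of it, 21.7% and 22%, and Oas1e held 0% and 0.851%. With MS-275 Oas1e held 26.0% and 49% and was the largest member in both libraries, while the share of Oas1a was 11.1% and 6.46%.

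The alignments that the authors deposited give the depth behind these values. They numbered from 9785619 to 23467935 per library, each of 35 bases. In the alignments deposited with replicate 1 of each condition 53.2% to 54.4% repeated the position and strand of another, and in those deposited with replicate 2 none did. Distinct positions were therefore used for the ratios between conditions, the tracks, the levels over unique windows and limma-voom. Numbers called alignments, on exons or introns, include the repeats. For the Oas genes, the values of a replicate fitted the alignments of the other replicate, within the same condition. Joined that way, a value and a number of exon alignments were never 0 and above 0 for the same gene and library (0 of 40), and the ratio of value to alignments varied by a median of 1.27-fold over the libraries in 8 genes. Joined as deposited, 4 of 40 did and the ratio varied by a median of 2.80-fold. The exchange is within a condition and leaves the groups as they are. Alignments are named below by the replicate they were deposited with.

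The exons of Oas1e held 4 and 0 alignments in the solvent libraries and 637 and 200 in the MS-275 libraries, or 332 and 200 distinct positions in the latter. A count of 0 in the replicate 2 solvent alignments allows up to 0.307 per 1000000. Scaled per 1000000 distinct positions, the solvent libraries together and the MS-275 libraries together differed 138-fold, with an exact 95% interval of 53.5 to 508 that covers counting error only. All 4 solvent positions came from replicate 1: the ratio was 72.8 without solvent replicate 2, at least 86.6 without solvent replicate 1 (3 counts as the floor in the library left), 95.1 without MS-275 replicate 1 and 189 without MS-275 replicate 2. All 6 exons were covered in both MS-275 libraries, with 15 alignments (exon 3, replicate 2) to 304 (exon 6, replicate 1). Per kb of exon and per 1000000 alignments, exon 1 held 7.67 and 8.52, exon 3 held 4.06 and 6.98, and exon 4 held 26.0 and 13.4, so coverage was uneven along the transcript in both. The introns of Oas1e held 312 and 90 alignments with MS-275, at 0.112 and 0.103 of the density of the exons, and 6 and 0 with solvent. In the 1000 bases downstream of its end there were 0 alignments in all 4 libraries, and in the 1000 bases upstream 0 and 1 with solvent and 9 and 1 with MS-275.

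**Figure D2:**
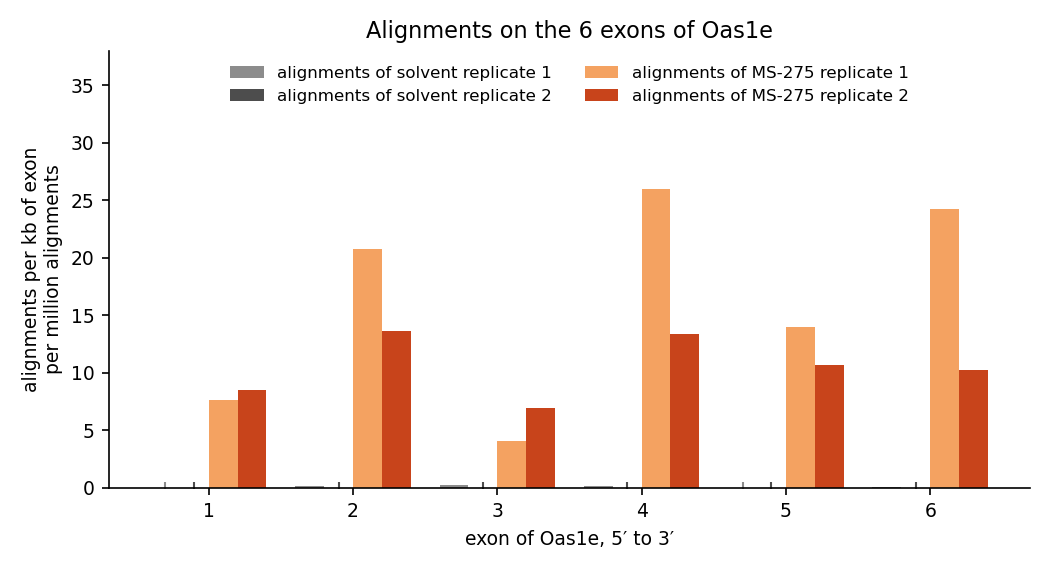
Alignments, repeats included, on each exon of Oas1e per kb of exon and per 1000000 alignments of the library, by the replicate they were deposited with. In each of the 6 exons the MS-275 libraries (orange and red bars) lie between 4.06 and 26.0, and the solvent libraries (grey) are at or near 0.

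In the other members the same alignments gave smaller differences. Between the conditions the ratio of distinct exon positions per 1000000 was 2.69 for Oas1c (exact 95% interval 2.19 to 3.32), 2.75 for Oas1b (1.88 to 4.11) and 2.61 for Oas1d (1.91 to 3.60). It was 1.27 for Oas3 (1.07 to 1.51), and the intervals of the other 5 genes included no difference: Oas2 1.01 (0.823 to 1.24), Oas1a 1.09 (0.856 to 1.39), Oas1g 0.751 (0.539 to 1.04), Oas1h 1.79 (0.809 to 4.16) and Oas1f 2.07 (0.783 to 6.07). The Oas1f ratio rests on 7 and 14 positions, and these counts alone show no difference in this gene. These intervals cover counting error in the libraries and not the spread between cultures. Exon 1 of Oas1c, at the start next to Oas1b, held 10 and 3 alignments with solvent and 19 and 4 with MS-275. Exon 2 of Oas1c held 1 and 2 with solvent and 19 and 9 with MS-275. Which start the Oas1c RNA came from was not tested. The density of alignments on introns, relative to exons and with repeats included, also differed among the genes. Only the replicate 1 alignments hold repeats, so this density cannot be compared between the replicate numbers. In the replicate 1 libraries it was 1.22 to 1.97 for Oas1f and Oas1h, above 0.343 to 0.606 for Oas1a and Oas1g. In the replicate 2 libraries it was 0.397 to 0.873 for Oas1a and Oas1g, with Oas1h (0.660 to 0.877) overlapping them and Oas1f (0.216, MS-275 only) below them. Over the 4 libraries it was 0.00978 to 0.0406 for Oas1d.

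**Figure D3:**
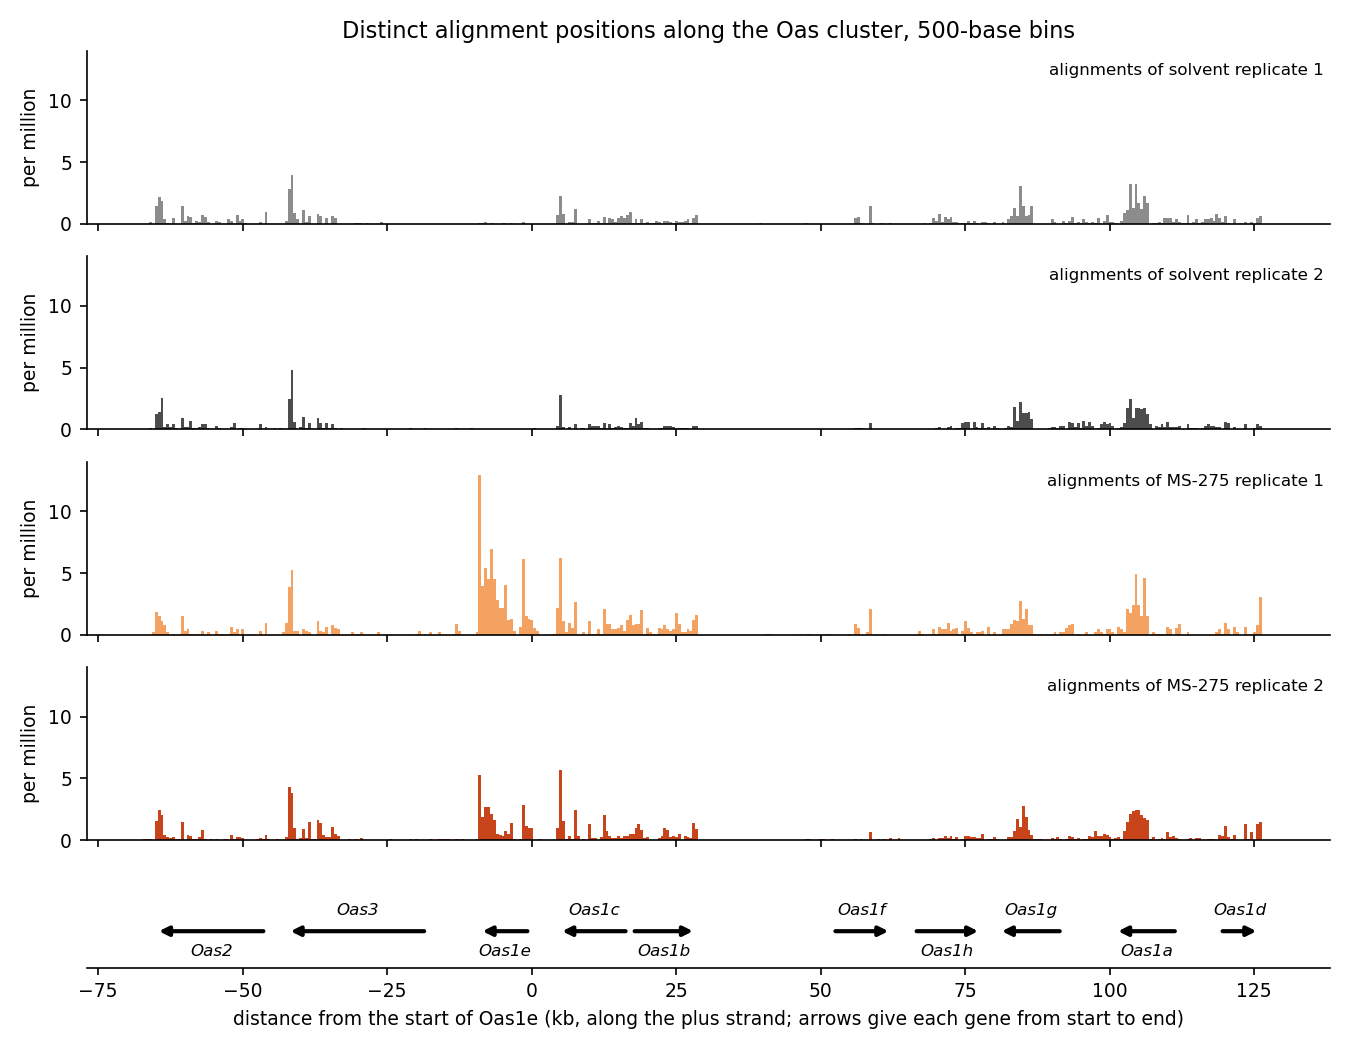
Distinct alignment positions per 1000000 distinct positions of each library, in bins of 500 bases, against the distance in kb from the start of Oas1e; the arrows show each gene from its start to its end. The MS-275 tracks carry a block over Oas1e that the solvent tracks lack, with up to 12.9 per 1000000 in a bin of the replicate 1 alignments, and the signal over Oas2, Oas1g and Oas1a is of like height in all 4 tracks.

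Because the Oas1 genes are close copies, the 35-base windows of their exons were searched in the genome. Of the windows in Oas1a 32% occurred once, and of those in Oas1g 39.1%, against 76.6% in Oas1e, 79.2% in Oas1c, 81.0% in Oas1d and 93.7% to 100% in Oas3, Oas1h and Oas2. Over the whole cluster 80.2% of windows were unique, and 99.86% of the 6427 alignments lay on such windows. Repeated windows thus carried almost no alignments, and the 4 and 532 distinct positions of Oas1e were all at unique windows. Counted over unique windows, the level of a gene no longer depends on how much of it is repeated exactly. Windows with near copies, as may occur between Oas1a and Oas1g, were not set apart. How the aligner treated such windows is not known.

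On that scale, distinct positions per kb of unique windows and per 1000000, the levels with solvent ran from Oas1a (11.1 ± 1.24, SD, n = 2) through Oas1g (5.00 ± 0.587), Oas1c (3.36 ± 0.344), Oas3 (2.63 ± 0.157), Oas2 (2.27 ± 0.423), Oas1d (1.89 ± 0.125) and Oas1b (1.16 ± 0.274) to Oas1h (0.368 ± 0.0766), Oas1f (0.258 ± 0.365) and Oas1e (0.158 ± 0.223). The libraries of Oas3 and Oas2, of Oas2 and Oas1d, and of the last 3 genes overlapped, and the other neighbours in this order did not. With MS-275 the highest level was that of Oas1e (22.6 ± 10.1), from 29.8 and 15.4 in its 2 libraries. Oas1a (11.6 ± 0.620), Oas1c (9.04 ± 0.705) and Oas1d (4.84 ± 0.107) followed, each apart from its neighbours. Oas1g (3.82 ± 0.997), Oas1b (3.37 ± 0.998) and Oas3 (3.33 ± 0.393) overlapped, Oas2 (2.29 ± 0.216) was below them, and Oas1f (0.674 ± 0.219) and Oas1h (0.585 ± 0.0255) overlapped at the low end. Oas1e, among the 3 lowest genes of the cluster with solvent, was thus the highest with MS-275, and Oas1a, the highest with solvent, came next.

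Among the other oligoadenylate genes, of 4 tested, 0 were called by limma with the block, against 21% of all genes higher and 6.46% lower. Without the block 0 were called as well (0.00492% of all genes higher and 0% lower). So few genes cannot be told apart from these shares. The genes were Oasl1 (log2 fold change -0.04) and Oasl2 (0.06), OAS-like proteins outside the cluster, Abce1 (-0.68), an ATP-binding protein that acts in ribosome recycling, and Pde12 (-0.16), which degrades the oligoadenylates. Abce1 had values of 0.804 and 1.45 with solvent and of 0.644 and 0.708 with MS-275, so its groups did not overlap.

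Of the interferon pathway around the Oas genes, no gene was called without the block, and the following counts are from limma with the block over all genes tested. Among interferon ligands 13 of 19 listed genes were at 0 in all 4 libraries, Ifnb1 included, and 2 were tested. Ifna13 had 0 and 0 with solvent and 0.00783 and 0.00366 with MS-275, so it entered the fit through MS-275 alone and could only be called higher. Ifnk had 0.00249 and 0.00052 with solvent and 0.00782 and 0.00305 with MS-275. It too entered the fit only with the help of its MS-275 values, and was called higher (log2 fold change 0.66). Among receptors and signalling genes 8 of 13 were higher and 0 lower, led by Socs1 (2.96, adjusted p = 6.99e-06), an inhibitor of JAK kinases, and Usp18 (2.39, adjusted p = 5.68e-05), an ISG15 protease that damps the interferon receptor. The lowest here were Tyk2 (-0.09) and Il10rb (-0.09), neither called. Among IRF transcription factors, which bind the ISRE, 4 of 8 were higher and 0 lower, led by Irf8 (2.66, adjusted p = 9.21e-06) and Irf7 (1.61, adjusted p = 0.00098), while Irf5 (-0.56) and Irf3 (-0.18) were not called.

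Among sensors of RNA and DNA 3 of 11 tested were higher and 0 lower, with Dhx58 (1.64) and Ifih1 (1.0) at the top and Ddx58 (-0.42) and Adar (-0.40) at the bottom, the last 2 not called. Ifih1, at 0.00086 and 0.00111 with solvent, entered the fit only with the help of its MS-275 values. Among 34 other interferon-stimulated genes 9 were higher and 3 lower. Cxcl10, a chemokine, had 0.00442 and 0.00706 with solvent and 0.0709 and 0.15 with MS-275 (log2 fold change 3.35, adjusted p = 3.3e-06), and Herc6 rose by 2.10. Xaf1 (-1.79) and Dtx3l (-1.03) were lower. With the block 21% of all genes were called higher and 6.46% lower, and the lists were compared neither with that share nor with each other by a test. Over the 6 lists 26 genes were higher and 3 lower with the block, and 19 and 8 after quantile normalization with it.

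**Figure D4:**
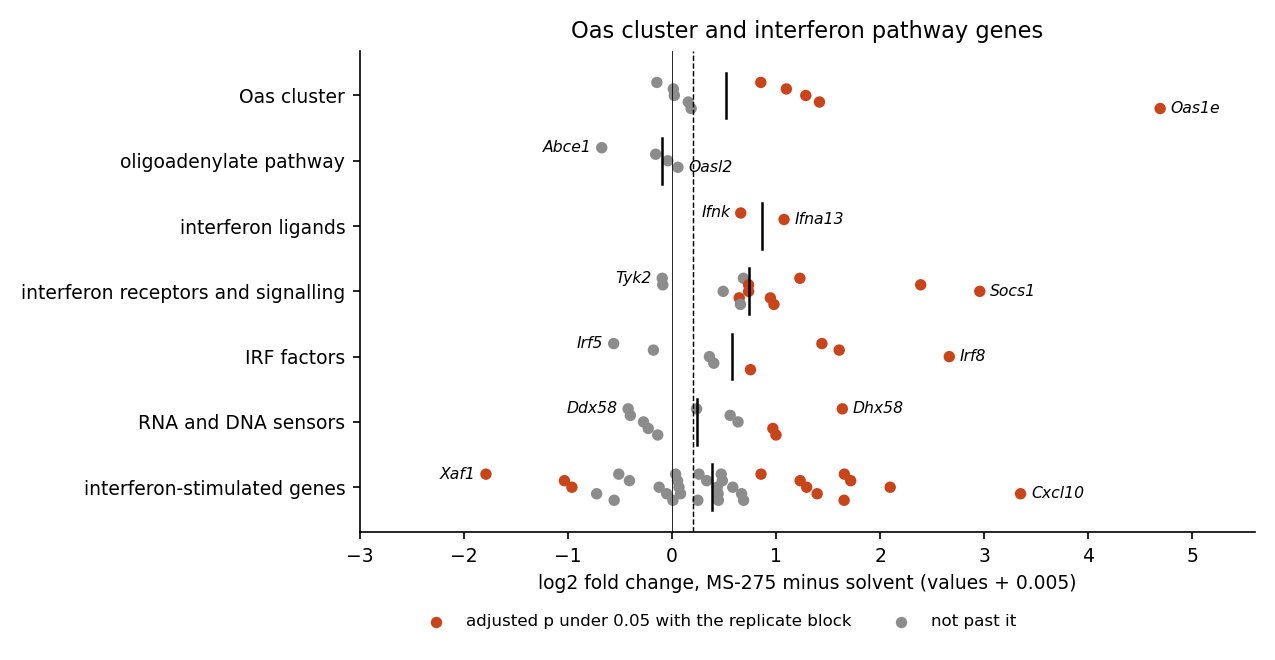
Log2 fold change (MS-275 minus solvent, values + 0.005) of each tested gene of the Oas cluster and of 6 lists of the interferon pathway; red points passed an adjusted p of 0.05 in limma with the replicate block, grey points did not, short lines are medians of the lists and the dashed line is the median of all genes tested (0.20). Oas1e is at 4.69, a place fixed by its choice as one of the largest rises, and the highest gene of the 6 lists is Cxcl10 (3.35).

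Among genes of the female germ line, listed because Oas1d is known from oocytes, 3 of 9 tested were higher with the block (21% of all genes) and 1 was lower (6.46%). Nobox, one of the 3, entered the fit through its MS-275 values alone. Figla (1.82) and Padi6 (1.47) had the largest rises, Ooep was lower (-1.70), and Zp2 (-0.19) was not called.

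The genes around the cluster differed among themselves. Of the 5 nearest protein-coding genes on each side, limma with the block called Rasal1 (1.70) on the Oas2 side and Rph3a (1.41) and Trafd1 (1.25) on the Oas1d side higher (21% of all genes). It called Rpl6 (-0.69) lower (6.46% of all genes), although the groups of Rpl6 overlapped. Iqcd (-0.11), 1110008J03Rik (0.34), Ddx54 (0.21), Dtx1 (0.45), Ptpn11 (0.44) and Gm15800 (0.48) were not called. Dtx1 lies next to Oas2 and Rph3a next to Oas1d. Within the cluster, Oas3 and Oas2 on one side of Oas1e had log2 fold changes of 0.18 and 0.02, and Oas1c on the other side had 1.42. Farther on that side, in order, were Oas1b (1.10), Oas1f (0.85), Oas1h (0.16), Oas1g (-0.15), Oas1a (0.01) and Oas1d (1.28). An effect of position was not tested.

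The genes whose 4 values were most like those of Oas1e, by the distance of log2(value + 0.005) over the 4 libraries, were Hspa1a (0.820), a heat shock protein, Spz1 (0.843) and Cypt3 (1.09), known from the testis, Calb1 (1.07), a calcium-binding protein, and LOC100504448 (1.11). With 4 libraries of 2 conditions such likeness says little beyond a low value with solvent and a high one with MS-275.

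Markers of the cells in the culture moved between the groups as well. All 10 ESC markers were above 0 in the 4 libraries and 4 of them were called lower with the block (Pou5f1, Esrrb, Utf1 and Fgf4), against 6.46% of all genes. The groups of Pou5f1 overlapped. Of 12 markers of feeder fibroblasts 7 were called higher, against 21% of all genes, and 0 lower. Acta2 and Fbn1 were called higher although their groups overlapped. The summed value of the 12 was 0.442 and 0.563 with solvent and 0.795 and 0.975 with MS-275. The markers did not move together: Dcn (log2 fold change -0.72) and Col3a1 (-0.52) went down, and the groups of Col3a1 did not overlap. Of 10 markers of macrophages and other immune cells 8 were tested, 0 were higher and 1 was lower, their sum was 0.185 to 0.246 with solvent and 0.157 to 0.220 with MS-275, and Ptprc and Lyz2 were at 0 in both solvent libraries and at most 0.00433 with MS-275. The part of feeder cells in the values of the Oas genes was not tested.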

How the data were processed

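Total RNA from TBV2 cells was sequenced by the authors on a Genome Analyzer IIx (poly(A)-selected, not strand-specific), mapped to mm9 and turned with Genomatix into the normalized signal per gene that they deposited; the aligner and the formula are not given in the sources used here. The tables of ratios and of genes above a threshold that the authors deposited were not used. Libraries were grouped by title, and a library called a duplicate was taken as replicate 2. The members and gene lists were chosen with earlier results of these data known, and an entry of the oligoadenylate list is not reported here.

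The 20336 genes that reached 0.001 in 2 or more libraries, all 10 Oas genes among them, were fitted with limma 3.58.1 (R 4.3.3; lmFit, eBayes with a trend) on log2(value + 0.005), with Benjamini-Hochberg adjustment. In the headers of the deposited tables the replicate 1 columns carry the word old in either condition, and deviations from the group means correlated at 0.764 between libraries of the same number, so the replicate number was also used as a block. P-values measure only the spread between these libraries. Exon alignments were counted per gene of the GENCODE M1 annotation (mm9) with Python 3.11.15 (numpy 2.4.6, pandas 2.3.3, scipy 1.17.1, biopython 1.88, matplotlib 3.10.9), which also gave the sequences. The fit was tested on simulated data with 200 changed genes, of mean absolute log2 fold change 1.99. It recovered 0 of them without the block and 200 with it. The simulation gave both conditions the same replicate shift, which favours the block. In data made that way a lack of calls without the block is no sign of a lack of change. Whether this holds for the real libraries, whose deviations correlated at 0.764, was not tested. The genes named are the 10 Oas genes, the 5 nearest to Oas1e in value, 5 neighbours on each side, and the 2 genes changed most in each direction of every list (all of a list of up to 6). Alternatives were other pseudocounts, filters, floors and scalings, the block, no trend, each library left out, and limma-voom on distinct positions (10 or more in 2 or more libraries); the scalings with the block, unique windows and the Oas1e ratio without each library were added after seeing the data.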

Additional observations from a re-analysis of the deposited data

How the results depend on the processing

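Oas1e, Oas1c, Oas1b, Oas1d and Oas1f had a positive log2 fold change under every alternative run that could be fitted (16 for each, 13 for Oas1f). For the 5 genes that overlapped the direction was not stable: it was positive in 10 of 16 for Oas1a, Oas2 and Oas3, in 9 of 13 for Oas1h and in 1 of 16 for Oas1g. The value of Oas1e was 6.60 with a pseudocount of 0.001, 2.94 with 0.02, 7.45 with limma-voom on distinct positions and 7.39 with limma-voom and the block, and 4.32 to 5.06 with 1 library left out. The median of the 10 genes was 0.88 with a pseudocount of 0.001, 0.082 with quantile normalization (with or without the block), 0.87 with limma-voom with or without the block (8 genes), and 0.46 to 0.78 with 1 library left out. Without the block, 1 Oas gene was called higher without solvent replicate 1, without solvent replicate 2 and for genes whose mean was 0.01 or more. Quantile normalization and median-ratio scaling moved the median of all genes from 0.20 to -0.03 and -0.01.

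The replicate block, from the pairing by replicate number, raised the genes called higher from 1 to 4277 and lower from 0 to 1314. It gave 2936 and 2961 after quantile normalization and 3379 and 2864 after median-ratio scaling, so the split between higher and lower depends on the scaling. Without the block they were 466 and 65 for genes whose mean was 0.01 or more, 2595 and 881 with limma-voom (5068 and 2327 with its block), 160 and 29 without solvent replicate 1, 76 and 25 without solvent replicate 2, 0 and 0 without either MS-275 replicate, and 0 and 0 with pseudocounts of 0.001 and 0.02, no filter, quantile normalization, median-ratio scaling and no trend. A fit that leaves 1 library in a group assumes that it varies like the other group. Of the interferon lists, 0 higher and 0 lower became 26 and 3 with the block, 19 and 8 with quantile normalization and the block, 18 and 9 with median-ratio scaling and the block, 16 and 1 with limma-voom, 31 and 7 with limma-voom and the block, 5 higher with a mean of at least 0.01, 2 higher without solvent replicate 1, 1 higher without solvent replicate 2, and 0 without either MS-275 replicate, with 0 lower in each. The genes at least 2-fold higher and lower in both pairs fell from 3256 and 575 to 1263 and 362 with a floor of 0.01. The causes were not tested. Depth limits Oas1f and Oas1h most, with 21 and 30 distinct exon positions over the 4 libraries.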
